A study of Homo sapiens with 10 samples.

Results

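The metallothionein and zinc transporter genes of AsPC-1 cells comprised 10 genes by name: the metallothioneins MT2A, MT1X, MT1E, MT1F and MT1G, the metal sensor MTF1, the zinc exporter SLC30A1 and the zinc importers SLC39A1, SLC39A4 and SLC39A14. They were chosen by symbol, and 9 of the 10 had a row among the 36498 genes of the deposited table; MT1X is not analysed here. AsPC-1 is an established epithelial line from a human pancreatic ductal adenocarcinoma. The starved group held 5 libraries of cells kept for 24 h without glutamine, in RPMI with 10% dialysed serum, and the control group held 5 libraries of cells kept for 24 h in complete RPMI. The labels can be read either way on whether the control serum was dialysed too; if it was not, absence of glutamine and dialysis cannot be told apart, and the metal content of neither medium is given. Nothing in the labels says that the replicates came from separate cultures, so p-values measure only the spread between these libraries. Libraries came from a kit that tags transcripts near their 3′ ends.

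Metallothioneins are small proteins whose many cysteines hold zinc and copper in metal-thiolate clusters. MTF1, a zinc finger transcription factor, binds short DNA sequences called metal response elements when free zinc rises, and switches on metallothionein genes and SLC30A1. Zinc exporters of the SLC30 (ZnT) family move zinc out of the cytosol, to the outside or into organelles, and importers of the SLC39 (ZIP) family move it into the cytosol.

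The coding sequences of the 4 measured metallothioneins are shown because the genes that differed between the groups are near-copies of each other, which bears on how reads can be assigned to them. They were read 5′ to 3′ from GENCODE release 29 transcripts, without the stop codon, with cysteine codons in capitals. All 4 genes lie on chromosome 16, MT1G on the minus strand and the other 3 on the plus strand.
MT2A: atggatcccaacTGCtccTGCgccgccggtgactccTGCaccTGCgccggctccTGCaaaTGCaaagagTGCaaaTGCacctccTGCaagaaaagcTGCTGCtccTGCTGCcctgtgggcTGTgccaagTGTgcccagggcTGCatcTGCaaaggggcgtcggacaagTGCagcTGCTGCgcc
MT1E: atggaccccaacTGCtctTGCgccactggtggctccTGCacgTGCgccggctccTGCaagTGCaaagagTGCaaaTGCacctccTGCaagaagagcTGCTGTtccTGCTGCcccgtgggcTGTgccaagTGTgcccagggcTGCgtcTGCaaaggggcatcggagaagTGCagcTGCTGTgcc
MT1F: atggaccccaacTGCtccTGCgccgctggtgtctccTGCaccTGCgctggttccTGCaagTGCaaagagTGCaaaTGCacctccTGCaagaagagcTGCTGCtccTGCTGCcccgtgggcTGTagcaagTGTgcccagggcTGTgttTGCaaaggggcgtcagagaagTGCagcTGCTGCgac
MT1G: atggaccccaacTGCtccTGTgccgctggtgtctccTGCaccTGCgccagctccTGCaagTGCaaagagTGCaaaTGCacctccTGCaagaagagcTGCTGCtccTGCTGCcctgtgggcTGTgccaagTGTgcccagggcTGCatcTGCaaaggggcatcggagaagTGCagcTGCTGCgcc

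Each of the 4 coding sequences had 61 codons, of which 20 code for cysteine, and the cysteine codons stood at the same 20 places in every pair. Pairs of coding sequences were 91.3% to 95.1% identical. Over the last 150 bases of the transcripts, the part nearest to where the kit reads, pairs were 64.4% to 76.3% identical. How reads that match several metallothioneins were counted is not given in the sources used here, so the split between the paralogs carries that uncertainty.

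The 250 bases before the start of MT2A and of SLC30A1, both known MTF1 targets, are shown because MT2A differed between the groups and SLC30A1 was not called. Capitals mark the core of the metal response element, searched as TGCACNC and TGCGCNC on both strands, with N any base; the 2 patterns cannot match at the same place on one strand, and no matches in these windows overlapped. Sequences are from RefSeq, build GRCh38.p14, which is not the build of the deposited table (hg19), and are printed 5′ to 3′ along the gene. MT2A is on the plus strand at chr16:56608334-56608583 and SLC30A1 on the minus strand at chr1:211579162-211579411.
MT2A: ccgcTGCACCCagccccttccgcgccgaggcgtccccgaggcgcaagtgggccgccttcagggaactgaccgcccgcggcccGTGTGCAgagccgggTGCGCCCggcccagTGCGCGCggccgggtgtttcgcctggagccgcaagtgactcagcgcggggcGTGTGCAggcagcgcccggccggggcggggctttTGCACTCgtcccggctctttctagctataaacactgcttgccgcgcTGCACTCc
SLC30A1: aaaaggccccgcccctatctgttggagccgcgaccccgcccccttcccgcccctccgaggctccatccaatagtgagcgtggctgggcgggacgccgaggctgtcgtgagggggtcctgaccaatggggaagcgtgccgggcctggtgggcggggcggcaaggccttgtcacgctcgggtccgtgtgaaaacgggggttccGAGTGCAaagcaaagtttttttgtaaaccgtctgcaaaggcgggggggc

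The MT2A window held 7 matches, and 11 of the 35116 promoter windows in the table (0.0313%, MT2A included) held at least as many. The SLC30A1 window held 1 match, and 24.8% of all windows held at least 1. The MTF1 window held 0 matches, and the 2 windows listed for SLC39A1 held 0 and 1. Of the 9 members analysed, these 4 had an entry in the promoter table. A match describes letters in this window only.

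Library totals, recovered as whole counts from the deposited CPM (counts scaled to a sum of 1000000 per library), ranged from 164008 to 593248 in starved and from 141763 to 474619 in control libraries, with medians of 201642 and 395645. A single count was worth 1.69 to 6.10 CPM in starved and 2.11 to 7.05 CPM in control libraries. Tests covered the 11202 genes that averaged 5 CPM or more, and 43.3% of them were called (limma-trend on log2(CPM + 1), Benjamini-Hochberg adjusted p under 0.05), 17.2% higher and 26.1% lower in starved cells, and their median log2 change was -0.22. Quantile normalization moved that median to -0.02. The 8 epithelial markers fixed for the line were present throughout, with a summed level of 2689 to 2891 CPM in starved and 13818 to 14793 CPM in control libraries, and 6 of the 8 were called lower. Among markers of other cells, summed levels were 21.2 to 36.6 against 84.6 to 157 CPM for fibroblasts, mostly from LUM, which was called lower, with DCN and COL3A1 at 0 counts. They were 67.1 to 122 against 96.9 to 141 CPM for leukocytes, with CD68 called higher and LYZ lower. Endothelial markers summed to 0 to 36.6 against 0 to 4.97 CPM and acinar markers to 0 to 5.31 against 0 to 2.11 CPM. The part of these differences in the results below was not tested.

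Metallothionein mRNA was higher in starved cells, most of it from MT2A and MT1E. MT2A stood at 5.30 times and MT1E at 1.71 times the control mean, and MT1G was counted in every starved library and in no control library. The sensor MTF1 and MT1F had higher means in starved cells but missed the threshold, and the exporter SLC30A1 and the importers SLC39A1, SLC39A4 and SLC39A14 were not called. Of the 9 members tested, 3 were called higher, beside 17.2% of all tested genes, and 0 lower, beside 26.1%. MT1G passed the filter on low values only through its starved libraries; of the other 8, 2 were called higher and 6 were not called, with a median log2 change of 0.44. No member was lower at an unadjusted p under 0.05 with limma (0 of 9), and edgeR and DESeq2 called 0 lower as well. In bulk RNA, fewer cells with a transcript and less of it per cell cannot be told apart.

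MT2A (ENSG00000125148.6), the main metallothionein of most human tissues, had 287, 193, 288, 104 and 202 CPM in starved replicates 1 to 5, against 28.2, 54.8, 44.7, 39.4 and 35.4 CPM in control replicates 1 to 5. Every starved library lay above every control library, and starved replicate 4 was the lowest of its group. The means were 215 ± 76.7 CPM in starved and 40.5 ± 10.0 CPM in control cells (SD, n = 5 each), and the log2 change was 2.32 (SE 0.25, limma adjusted p = 1.9e-07, with edgeR and DESeq2 in the same direction). Of all tested genes, 96.1% had a lower log2 change. The value of starved replicate 4 rested on 17 counts, with an exact Poisson 95% interval of 60.4 to 166 CPM; such intervals cover counting error only.

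MT1E (ENSG00000169715.14), a metallothionein of the MT1 group, had 246, 283, 302, 256 and 313 CPM in starved replicates 1 to 5, against 119.9, 215, 176, 128 and 179 CPM in control replicates 1 to 5. The groups did not overlap, though the highest control library, replicate 2, came within 31.2 CPM of the lowest starved one, replicate 1. The means were 280.0 ± 28.8 CPM in starved and 164 ± 39.5 CPM in control cells, a log2 change of 0.80 (SE 0.16, limma adjusted p = 0.000307). Libraries of the groups also did not overlap, with starved higher, in 12.5% of all tested genes.

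MT1G (ENSG00000125144.13), another gene of the MT1 group, had 23.6, 4.96, 9.30, 12.2 and 21.2 CPM in starved replicates 1 to 5, from 14, 1, 2, 2 and 4 counts, against 0 counts in each of the 5 control libraries. With a floor of 3 counts over the control group (1.85 CPM), the ratio of starved to control was 9.10. It took the 23 counts over the starved group as exact, so it is not a firm lower limit. The call (limma adjusted p = 0.000373) is the one that the filter favoured, and starved replicate 1, the deepest library, gave 14 of the 23 counts.

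MT1F (ENSG00000198417.6), also of the MT1 group, had 15.2, 34.7, 13.9, 30.5 and 21.2 CPM in starved replicates 1 to 5, against 0, 16.9, 7.46, 9.84 and 12.6 CPM in control replicates 1 to 5. The groups overlapped, with 3 starved libraries above the highest control library. All 10 values rested on 9 counts or fewer. The log2 change was 1.62 (95% interval 0.18 to 3.05, limma adjusted p = 0.0641); without control replicate 2 the adjusted p was 0.0438, and over 20 alternatives it lay between 0.0191 and 0.150. Without control replicate 1, the library at 0, the log2 change was 0.89.

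**Figure D1:**
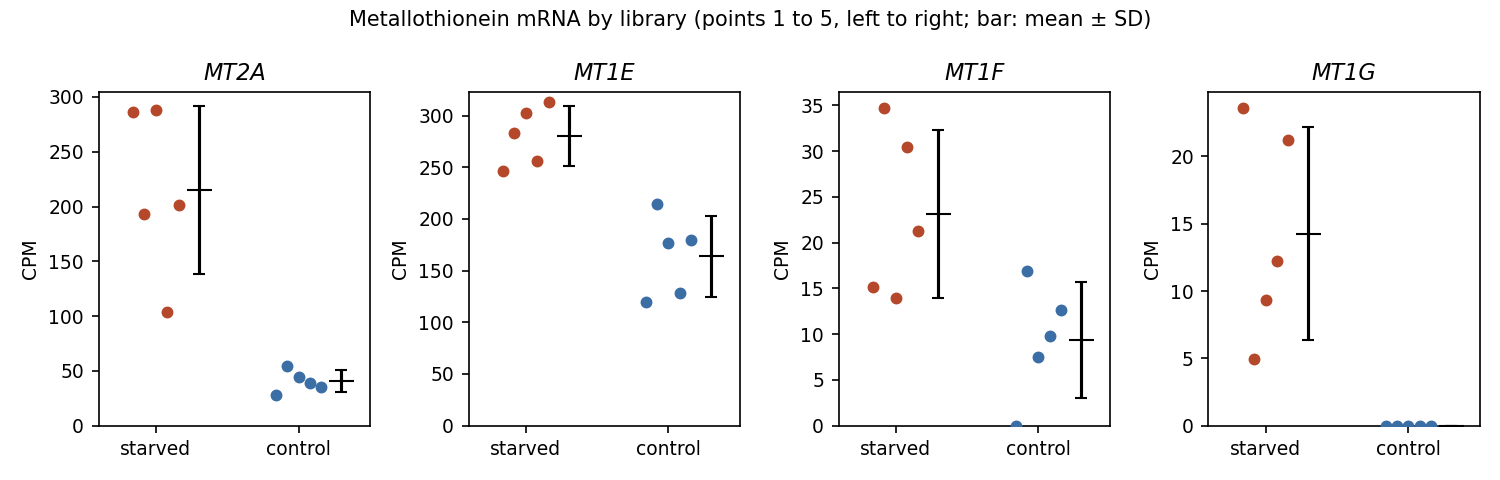
Levels of MT2A, MT1E, MT1F and MT1G in CPM (vertical axes, each from 0) in the 5 starved and 5 control libraries (points, replicates 1 to 5 from left to right), with the mean and SD beside them. The starved points of MT2A, MT1E and MT1G lie above all control points, whereas those of MT1F overlap them.

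Summed over these 4 genes, metallothionein mRNA amounted to 571, 516, 614, 402 and 557 CPM in starved replicates 1 to 5, against 148, 287, 229, 177 and 227 CPM in control replicates 1 to 5. The means were 532 ± 80.5 CPM in starved and 214 ± 53.3 CPM in control cells, a ratio of 2.49, and the groups did not overlap. The make-up of the sum differed too. MT2A gave 50.1%, 37.5%, 47.0%, 25.8% and 36.2% of the metallothionein counts in starved replicates 1 to 5, against 19.0%, 19.1%, 19.6%, 22.2% and 15.6% in control replicates 1 to 5. MT1E gave 53.4% ± 7.72 in starved and 76.8% ± 3.39 in control libraries. All starved shares of MT2A lay above all control shares, but counting error blurred that gap. In starved replicate 4 the exact binomial 95% interval, 15.8% to 38.0%, reached into the control range. The intervals of control replicates 1 to 4 ran up to 41.9%, 26.7%, 29.1% and 39.2%, into the starved range. These sums and shares are descriptions, with no test, since their genes were chosen with results known; the transcripts are 406 to 786 bases long, and a share is compared here only between groups.

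**Figure D2:**
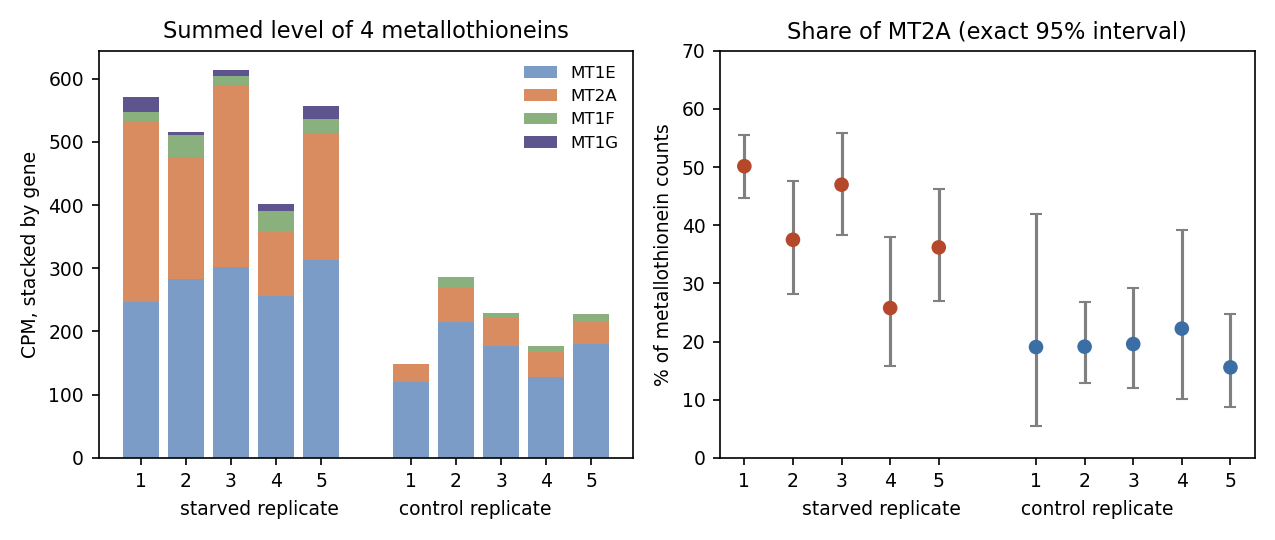
Left, CPM of the 4 metallothioneins stacked by gene (vertical axis) for each starved and control replicate (horizontal axis); right, the share of MT2A in their counts in percent, with exact binomial 95% intervals. The sums reach 402 to 614 CPM in starved and 148 to 287 CPM in control libraries, and the MT2A share is 25.8% to 50.1% against 15.6% to 22.2%.

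Of 17 other metallothionein genes and pseudogenes looked up, 11 had a row, 4 of these were at 0 counts in all libraries, and 1, MT1M, passed the filter. MT1M had 4 counts over the starved and 14 over the control libraries and was not called (log2 change -0.82, 95% interval -2.66 to 1.02, limma adjusted p = 0.474). MT1H, the neighbour of MT1G on chromosome 16, had 11 counts over the starved libraries, in 4 of the 5, and 0 over the control libraries. Starved replicate 1 gave 6 of the 11. Against the same floor the ratio was 4.35, with the starved counts again taken as exact. MT1H stayed under the filter and has no test. MT3, the metallothionein known from brain, had 1 and 0 counts over the starved and control libraries, and MT1A 3 and 3. The 11 genes together held 26 counts over the starved and 25 over the control libraries, against 746 and 375 for the 4 members.

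MTF1 (ENSG00000188786.9), the metal sensor, had 32.0, 49.6, 46.5, 18.3 and 26.5 CPM in starved replicates 1 to 5, against 21.2, 14.7, 14.9, 14.8 and 17.7 CPM in control replicates 1 to 5. In 4 of the 5 starved libraries the level was above the highest control library, and starved replicate 4 lay within the control range. The means were 34.6 ± 13.3 CPM in starved and 16.7 ± 2.81 CPM in control cells, and the log2 change was 0.94 (95% interval 0.12 to 1.76, limma adjusted p = 0.0596). MTF1 was called with edgeR (log2 change 1.18, adjusted p = 0.00702, beside 22.2% of all tested genes called higher and 25.6% lower by edgeR) and with DESeq2 (adjusted p = 0.0287). Its adjusted p was 0.0224 without starved replicate 4 and 0.0475 without control replicate 1, and it lay between 0.00702 and 0.141 over the 21 alternatives. The counts behind these levels were 3 to 19 per starved library and 3 to 7 per control library.

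SLC30A1 (ENSG00000170385.9) encodes ZnT1, the exporter of the plasma membrane. It had 72.5, 59.5, 18.6, 85.4 and 58.4 CPM in starved replicates 1 to 5, against 42.3, 71.6, 69.6, 54.1 and 63.2 CPM in control replicates 1 to 5. The starved libraries spread on both sides of the control range, and the low value of starved replicate 3 rested on 4 counts (exact Poisson 95% interval 5.07 to 47.6 CPM). The means were 58.9 ± 25.05 CPM in starved and 60.2 ± 12.1 CPM in control cells. SLC30A1 was not called (log2 change -0.16, 95% interval -0.84 to 0.51, limma adjusted p = 0.714), and without starved replicate 3 the log2 change was 0.20. On the fitted scale the interval of SLC30A1 runs from 0.56-fold to 1.42-fold, and that of MT2A from 3.48-fold to 7.19-fold.

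The order of the starved libraries was not the same from gene to gene. Replicate 4 was lowest in MT2A and MTF1 and highest in SLC30A1. Replicate 3 was highest in SLC39A1 and lowest in SLC30A1. In MT2A it stood at 288 CPM, beside 287 CPM in replicate 1, where SLC30A1 was at 72.5 CPM. The MTF1 value of replicate 4 rested on 3 counts and the SLC30A1 value of replicate 3 on 4 counts. Replicates 4 and 3 are single libraries of 164008 and 215121 counts, and no test was made of them.

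SLC39A4 (ENSG00000147804.9) encodes ZIP4, an importer known for zinc uptake in the intestine and for its high level in pancreatic cancers. It had 216, 124, 163, 189 and 165 CPM in starved replicates 1 to 5, against 162, 185, 189, 128 and 149 CPM in control replicates 1 to 5. The groups overlapped widely, with a log2 change of 0.06 (95% interval -0.28 to 0.40, limma adjusted p = 0.781). On the fitted scale this interval runs from 0.825-fold to 1.32-fold, the narrowest of the 9 members apart from MT1E.

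SLC39A1 (ENSG00000143570.17), which encodes the plasma membrane importer ZIP1, had 92.7, 84.3, 102, 73.2 and 53.1 CPM in starved replicates 1 to 5, against 77.6, 86.4, 77.05, 64.0 and 70.8 CPM in control replicates 1 to 5. The highest and the lowest of the 10 values were both from starved libraries. It was not called (log2 change 0.08, 95% interval -0.35 to 0.52, limma adjusted p = 0.782). In GENCODE release 29 SLC39A1 overlaps CREB3L4 on the opposite strand, which had 2.32 CPM in starved and 13.3 CPM in control libraries. It also overlaps a protein-coding gene on the same strand, for which no level was found. How strand and overlaps were used in counting is not given in the sources used here.

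SLC39A14 (ENSG00000104635.13) encodes ZIP14, which carries zinc, manganese and iron. It had 53.9, 59.5, 79.0, 73.2 and 58.4 CPM in starved replicates 1 to 5, against 98.8, 86.4, 62.1, 73.8 and 63.2 CPM in control replicates 1 to 5. It was not called (log2 change -0.23, 95% interval -0.68 to 0.21, limma adjusted p = 0.394), and its change lay next to the median of all genes. Summed, these 3 importers stood at 317 ± 42.5 CPM in starved and 315 ± 38.9 CPM in control cells. The other importer genes, described below, summed to 122 to 183 CPM in starved and 217 to 324 CPM in control libraries.

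**Figure D3:**
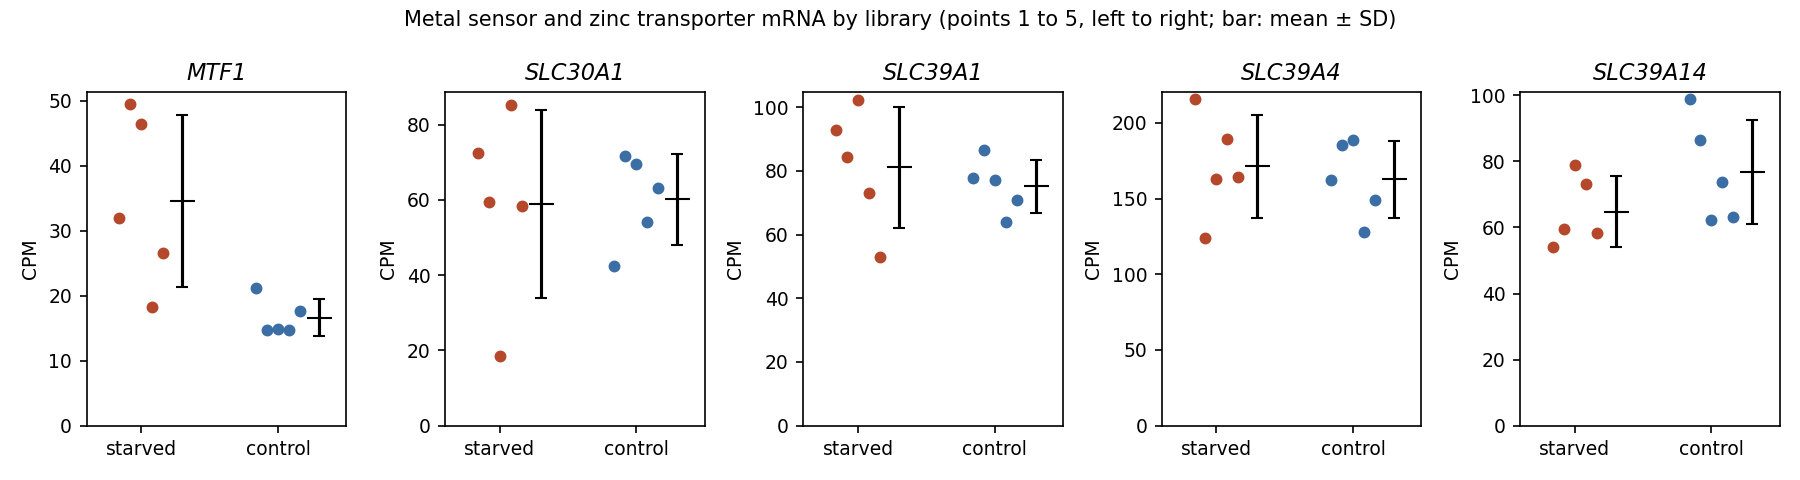
Levels of MTF1, SLC30A1, SLC39A1, SLC39A4 and SLC39A14 in CPM (vertical axes, each from 0) in the 5 starved and 5 control libraries (points, replicates 1 to 5 from left to right), with the mean and SD beside them. MTF1 is above the control range in 4 of 5 starved libraries, and the transporters overlap.

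Among the other zinc transporters SLC30A5 rose and SLC39A6 and SLC39A10 fell, in shares of their families near those of all tested genes (17.2% higher and 26.1% lower). Of 10 other exporter genes looked up, SLC30A2 was at 0 counts and 5 were tested; 1 rose and 0 fell (0 lower at an unadjusted p under 0.05 with limma, and 0 with edgeR or DESeq2), with a median log2 change of 0.11. The riser, SLC30A5, which encodes a transporter that loads zinc into the early secretory pathway, had 84.3, 69.4, 74.4, 67.1 and 58.4 CPM in starved replicates 1 to 5, against 21.2, 37.9, 32.3, 54.1 and 48.0 CPM in control replicates 1 to 5. Its groups did not overlap (log2 change 0.91, SE 0.27, limma adjusted p = 0.00934), but without control replicates 1 and 2, whose index in the labels, of unstated meaning, falls outside the regular run of the other 8, the adjusted p was 0.0594.

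Of 11 other importer genes 9 had a row and 7 were tested; 2 fell and 0 rose, with a median log2 change of -0.90, beside -0.22 over all tested genes. At an unadjusted p under 0.05 with limma, 3 were lower and 1 higher. Besides SLC39A6 and SLC39A10, the lower ones included SLC39A11, which was not called (log2 change -1.59, limma adjusted p = 0.0702). The only higher one was SLC39A13, which edgeR and DESeq2 called. SLC39A6, which encodes ZIP6, had 16.9, 39.7, 13.9, 18.3 and 26.5 CPM in starved replicates 1 to 5, against 77.6, 50.6, 64.6, 78.7 and 55.6 CPM in control replicates 1 to 5. Its log2 change was -1.54 (SE 0.32, limma adjusted p = 0.000545). SLC39A10, which encodes ZIP10, the closest relative of ZIP6 and its partner in a zinc channel, had 43.8, 19.8, 55.8, 24.4 and 31.8 CPM in starved replicates 1 to 5, against 98.8, 84.3, 94.4, 78.7 and 68.2 CPM in control replicates 1 to 5. Its log2 change was -1.33 (SE 0.28, limma adjusted p = 0.000568), and in both genes every starved library lay below every control library, as in 17.9% of all tested genes. SLC39A13, which encodes ZIP13, had 30.3 ± 17.7 CPM in starved and 12.9 ± 8.79 CPM in control libraries and was not called (limma adjusted p = 0.0712).

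**Figure D4:**
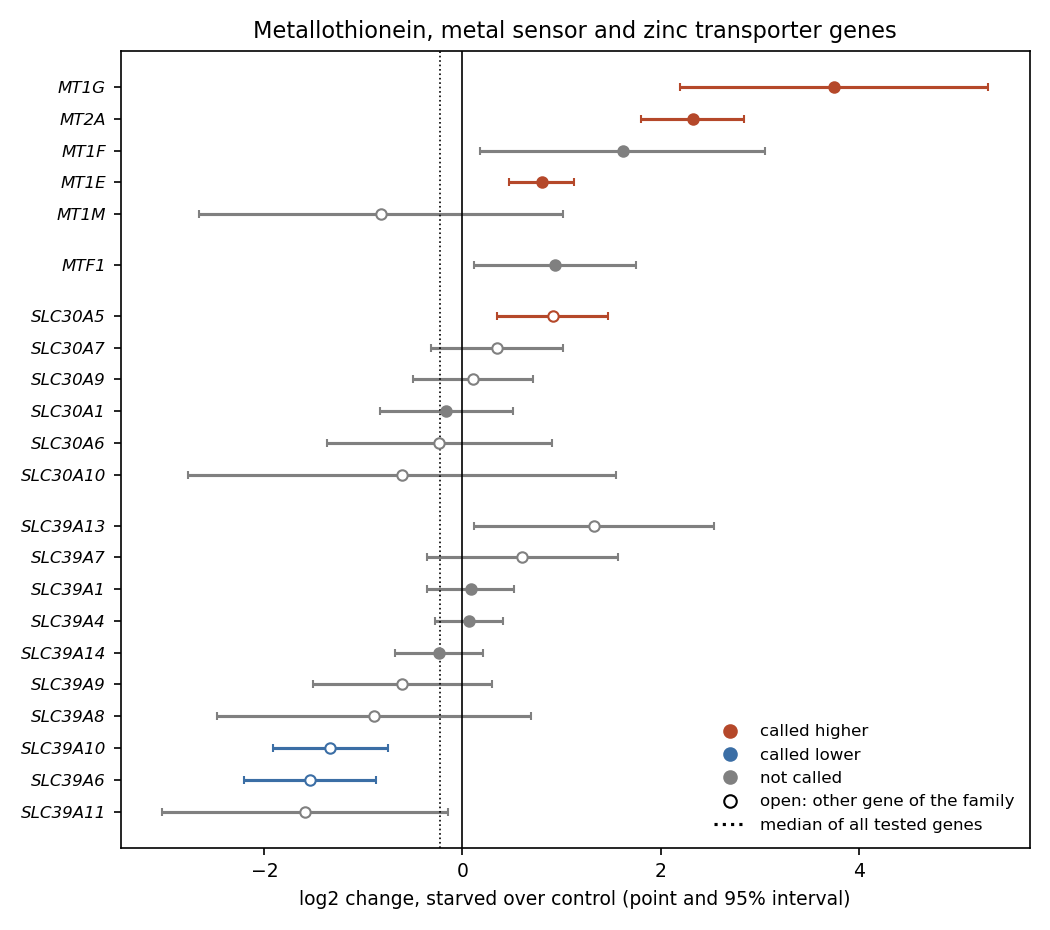
Log2 change of starved over control cells with its 95% interval (horizontal axis) for the tested metallothionein, metal sensor, exporter and importer genes; filled points are the members, open points the other genes of each family, and the dotted line is the median of all tested genes. MT1G, MT2A, MT1E and SLC30A5 were called higher and SLC39A10 and SLC39A6 lower.

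Copper is the other metal that metallothioneins hold. Of 14 genes of copper transport and of its enzymes 11 were tested; 5 fell and 1 rose, beside 26.1% lower and 17.2% higher among all tested genes. Their median log2 change was -0.87, beside -0.22 over all tested genes. ATOX1, the copper chaperone that serves the secretory pathway pumps, had 27.3 ± 15.8 CPM in starved and 103 ± 22.6 CPM in control libraries. The copper-zinc superoxide dismutase SOD1 had 84.1 ± 7.95 CPM in starved and 269 ± 42.8 CPM in control libraries. COX11, which delivers copper to cytochrome oxidase, had 6 counts over the starved and 46 over the control libraries. It averaged 3.40 CPM in starved and 31.3 CPM in control libraries. COX11, counted among the 5 that fell, thus passed the filter on low values only through its control libraries. The oxidase subunits MT-CO1 and MT-CO2 fell as well. The copper pump ATP7A was the riser, with 22.1 ± 11.6 CPM in starved and 8.12 ± 7.65 CPM in control libraries (limma adjusted p = 0.0440). The log2 change was 1.84, and 1.20 without control replicate 1, the library at 0. The call ended when any 1 starved library, or control replicate 1 or 5, was left out (adjusted p 0.0522 to 0.107), without control replicates 1 and 2 together (0.156) and with a pseudocount of 0.5 (0.0597).

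Other stress genes known to respond to metals were looked up by 12 symbols, with the old and new symbol of the same gene among them. Of these, 9 were tested. Among the 9, 4 fell and 0 rose, beside 26.1% lower and 17.2% higher among all tested genes. At that background 0 of 9 says little (0 higher at an unadjusted p under 0.05 with limma, and 0 with edgeR or DESeq2). Their median log2 change was -0.77. The heat shock genes HSPA1A and HSPA1B, near-identical copies whose split is uncertain, had 24.6 ± 16.2 and 21.2 ± 14.6 CPM in starved libraries, against 94.9 ± 19.3 and 64.8 ± 12.5 CPM in control libraries. TXNRD1, a thioredoxin reductase, and SLC7A11, the cystine importer, were the others that fell. HMOX1, the haem oxygenase that cadmium and arsenite induce, had 1 count over the starved and 6 over the control libraries.

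Across the 10 libraries, the genes whose log2(CPM + 1) followed the summed metallothioneins most closely were SLPI (r = 0.99), SERF2 (0.98), GBA2, C16orf72 (0.98 each) and HERC4 (0.97), among the 7005 genes that averaged 20 CPM or more. All 5 had higher means in starved cells; SLPI, a secreted protease inhibitor, averaged 87.9 CPM in starved and 23.4 CPM in control libraries. The closest to SLC30A1 were RFWD3 (r = 0.94), ZNF629 (0.90), MRPL16, MMAB and RGS12 (0.87 to 0.86). The libraries form 2 groups, and genes measured in the same libraries share each library's depth, so these values describe likeness only.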

How the data were processed

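Total RNA of AsPC-1 cells was made into QIAseq UPX 3′ Transcriptome libraries, per the labels' protocols; the submitters' processing notes name the build hg19. Aligner, counting program, annotation, molecular identifiers and use of strand were not given in the sources used here. Deposited values were CPM, each column summing to 1000000. Dividing by the smallest value of each column gave whole counts for 100% of entries (relative tolerance 1e-06), which edgeR 4.0.16 and DESeq2 1.42.0 used as alternatives; edgeR called 2483 genes higher and 2873 lower.

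Groups followed the sample titles. The main test used limma 3.58.1 (limma-trend, two-sided, no covariates) in R 4.3.3. It was run on log2(CPM + 1) for genes averaging 5 CPM or more, with Benjamini-Hochberg adjustment at 0.05. A run on simulated data changed far fewer genes than were called here, so it does not check the test at this share of calls. The pseudocount draws changes of low genes towards 0, while libraries at 0 counts can enlarge them. Where a group had 0 counts, the ratio used 3 counts over that group and took the counts of the other group as exact.

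The members and lists were chosen with earlier results of these data known. Members are all named; of the other lists except cell type markers, called genes with at least 20 CPM in the higher group, at most 6 per list. MT1A, MT1H, MT1M, MT3, SLC30A2, SLC39A11, SLC39A13, CREB3L4 and HMOX1 and the markers DCN, COL3A1, LUM, LYZ and CD68 fall outside that rule and were named after their values were seen. The main test did not pair libraries by replicate number: correlations of same-numbered deviations were -0.02 to 0.05. Counting error is large at this depth, so such values cannot exclude pairing. Identity used global alignment (biopython 1.88).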

Additional observations from a re-analysis of the deposited data

How the results depend on the processing

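The 21 alternatives were other pseudocounts, filters, scalings and tools, a replicate block, and single libraries or control replicates 1 and 2 together left out. In all of them MT2A and MT1E kept their direction and their call. MT1G kept its call where it was tested, but its direction could not turn, since every control library had 0 counts. A filter at 20 CPM left MT1G and MT1F untested. Members called higher numbered 5 with a pseudocount of 5 or quantile normalization, and 3 to 4 without single libraries. MT1F passed the threshold at log2 changes of 1.06 (pseudocount 5), 1.62 (no filter), 1.795 (quantile normalization) and 1.62 (replicate block); without single libraries it ran from 0.89 to 1.93. MTF1 passed at 0.81 (pseudocount 5), 1.02 (median-of-ratios scaling), 1.23 (quantile normalization), 1.175 (edgeR) and 1.18 (DESeq2); without single libraries it ran from 0.79 to 1.14. The cause was not tested. Uncalled changes turned sign for SLC30A1 with edgeR (0.024) and DESeq2 (0.0033). Without single libraries they ran from -0.33 to 0.20 for SLC30A1, -0.0102 to 0.22 for SLC39A1 and -0.0252 to 0.17 for SLC39A4. The replicate block gave 1915 genes higher and 2886 lower, against 1929 and 2921 without it. Numbers of calls over all genes stayed within 1.5 times. MT1F, MT1G and MTF1 rest on few counts, so the depth limits them most.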
